A study of Rattus norvegicus with 29 samples.

Results

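Pain alone was compared with isoflurane alone in the basolateral amygdala of the rat, both 6 h after the treatment. The comparison holds 10 of the 29 arrays of the study, 5 labelled pain and 5 labelled isoflurane, and these were chosen by their titles without use of any measured value. Each array reports the signals of 15866 probe sets, short sets of DNA probes that each bind 1 transcript or a few, in total RNA of the tissue. The other arrays of the study were 5 of conditioning, 5 of conditioning under isoflurane and 9 of untreated baseline. They were used to estimate the spread between arrays and, for the conditioning groups, as a separate awake and anaesthetised pair. Pain is described in the labels as a component of conditioning, and isoflurane as a general anaesthetic that impairs memory. The kind of painful stimulus, the dose and duration of isoflurane, and the strain, sex and age of the rats are not given in the sources used here. The pain arrays carry the rat numbers 9 to 13, 1 for each array. The isoflurane arrays carry no rat number, so that their spread, and the p-values built on it, may be partly technical. A labelling kit is named for the isoflurane and baseline arrays and not for the pain arrays, and the numbering places the isoflurane samples after the pain samples. A difference in labelling or handling that follows these groups cannot be told apart from pain against isoflurane.

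The basolateral amygdala joins signals about a cue with signals about a painful event and is needed for the memory of fear. Painful stimuli reach it through the thalamus, the cortex and the parabrachial nucleus, and they also release noradrenaline and glucocorticoids that act on its neurons. Active neurons transcribe immediate early genes such as Fos, Egr1 and Arc within minutes and effector genes such as Bdnf over hours. Isoflurane acts in the opposite direction on neuronal firing: it strengthens GABA-A and glycine receptors, opens leak potassium channels and weakens excitatory transmission. The study sought changes in expression after pain and after anaesthesia, and setting one against the other asks which transcripts separated a noxious stimulus from an anaesthetic at that time.

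One of the pain arrays stood apart from the rest. Pain replicate 3 had a median deposited signal of 292.2, against 226.5 to 244.1 for the other pain arrays and 223.85 to 239.9 for the isoflurane arrays, as the plot of array medians and correlations shows. Its median correlation with the other arrays was 0.907, whereas each of the other 28 arrays had 0.950 to 0.969. It had 135 probe sets at or below a signal of 16, against 1038 to 1710 on the other arrays. Its 3′ to 5′ signal ratio for Gapdh, a measure of RNA length, was 1.02 and the lowest of the 29. Between the 10 arrays the correlation lay between 0.902 and 0.974, or 0.951 and 0.974 without pain replicate 3, and no pair was a repeat of the same array. Values without pain replicate 3 are therefore given beside the leading results and the list values that it moved most. Markers of the projection neurons of the labelled region were measured on every array. Slc17a7, the vesicular glutamate transporter of cortical-type neurons, had log2 values of 11.29 to 12.08 over the 10 arrays, Camk2a had 9.94 to 11.19, Nrgn had 11.82 to 12.84 and Lmo3 had 8.82 to 10.09. Neurod6 and Rspo2, which were also listed as markers, have no probe set with a single symbol here. The dopamine receptor genes Drd1 and Drd2, which mark the neighbouring striatum, had log2 values of 8.31 to 9.39 and 6.21 to 8.66. Both passed the filter on low values, as did the hypothalamic peptide genes Avp and Pmch, whereas Adora2a and Oxt did not.

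**Figure D1:**
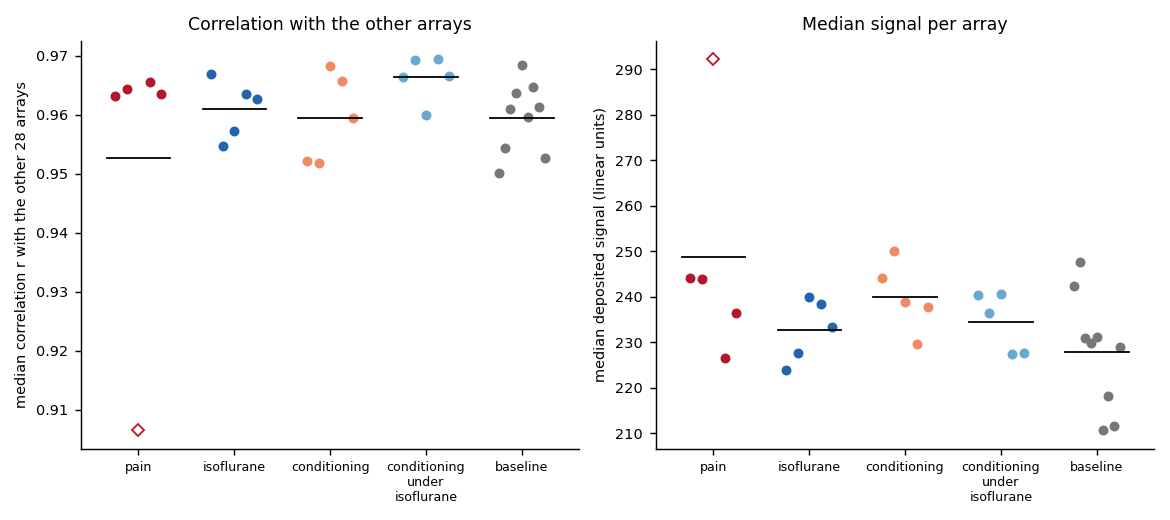
Median correlation of each array with the other 28 arrays (left, Pearson r over the tested probe sets) and median deposited signal of each array (right, linear units), by group. Points are arrays, horizontal lines are group means and the open diamond is pain replicate 3, which sits at 0.907 and 292.2, apart from the other arrays.

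No transcript passed the test between pain and isoflurane. Of 9520 probe sets tested with limma, 0 had an adjusted p under 0.05 (0% of those tested), and the lowest adjusted p was 0.45. At an unadjusted p under 0.05 there were 595 probe sets (6.25%), 263 higher after pain (2.76%) and 332 lower (3.49%), where 476 would be reached if no transcript differed. Without pain replicate 3 the number was 343 (3.60%), 164 higher (1.72%) and 179 lower (1.88%), again with 0 past the adjusted threshold. The split between higher and lower calls followed the scaling: 44.2% of the 595 were higher after pain, against 59.5% with the deposited scaling and 17.8% with each array centred on its median. In 80 probe sets (0.84%) the 5 pain values and the 5 isoflurane values did not overlap, 28 with pain higher (0.294%) and 52 with pain lower (0.546%). A similar share of probe sets would separate between groups of 5 if no transcript differed. The median standard error of a difference was 0.14 on the log2 scale, which gives a 95% interval of about 0.30 to each side, or 1.23-fold. With that error an observed difference of about 0.30 was needed for an unadjusted p under 0.05, and transcripts with smaller errors needed less. Across all probe sets the median difference was -0.01, and 18 probe sets differed by more than 1 on the log2 scale. The genes below are therefore described by their values, and none of them is a call.

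The 12 genes with the lowest p on the lower side after pain, called leading genes here, were Zfp644, Epb41, Gpsm2, Ppp1r18, Ppfia1, Tex264, Hbb, Ccdc43, Mrpl43, Secisbp2l, Sec24c and Zfp422. They were picked by this comparison, so their sizes are a description. The groups did not overlap in 8 of the 12, with the overall share of such probe sets at 0.546%, and the exceptions were Ppp1r18, Tex264, Mrpl43 and Zfp422. Without pain replicate 3 the 12 differences lay between -0.84 and -0.27, and the same 8 genes had groups that did not overlap.

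Zfp644, which encodes a zinc-finger protein, had log2 values of 9.51, 9.17, 9.20, 9.42 and 9.38 after pain, against 9.58, 10.54, 9.89, 10.14 and 9.98 after isoflurane. Every pain value lay under every isoflurane value, and isoflurane replicate 1 was the closest to them. The difference was -0.69 (SE 0.15), or 0.620 of the isoflurane level, with an adjusted p of 0.45 in limma. Without pain replicate 3 it was -0.66 with an adjusted p of 0.999. Gpsm2, which links G proteins to the machinery that orients the mitotic spindle, had 6.83, 6.97, 5.95, 7.23 and 6.54 after pain, against 7.45, 7.77, 7.31, 7.99 and 7.68 after isoflurane. Pain replicate 3 held the lowest of these values, and the groups did not overlap. The difference was -0.94 (SE 0.23) with an adjusted p of 0.785, and -0.75 without that array. Ppfia1, a liprin scaffold of cell contacts and synapses, averaged 7.40 ± 0.18 after pain and 8.10 ± 0.28 after isoflurane (SD, n = 5 each), a difference of -0.70 without overlap.

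Ppp1r18, or phostensin, which brings protein phosphatase 1 to actin filaments, turned on 1 array. Its log2 values were 6.34, 6.89, 6.37, 7.86 and 6.32 after pain, against 7.68, 7.60, 7.37, 7.66 and 7.80 after isoflurane. Of the pain arrays, replicate 4 lay above all isoflurane values and the others below them. The difference over all arrays was -0.87 (SE 0.21) with an adjusted p of 0.785. Without pain replicate 4 it was -1.14 with an adjusted p of 0.0032, the single call reached when any 1 array of the pair was left out. Tex264, a receptor that sends parts of the endoplasmic reticulum to lysosomes, had 8.13, 7.95, 8.39, 7.20 and 8.40 after pain, against 8.69, 8.37, 8.89, 8.33 and 9.10 after isoflurane. Pain replicates 3 and 5 reached into the isoflurane range, and the difference was -0.66 (SE 0.18).

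The other genes on the lower side showed smaller or more scattered differences. Ccdc43 averaged 7.90 ± 0.42 after pain and 8.53 ± 0.10 after isoflurane (SD, n = 5 each), a difference of -0.63. Secisbp2l, a relative of the protein that reads selenocysteine codons, differed by -0.46, and Sec24c, a cargo adaptor of the vesicles that leave the endoplasmic reticulum, by -0.45, neither with overlap. Mrpl43, a protein of the mitochondrial ribosome, differed by -0.32 and the zinc-finger gene Zfp422 by -0.36, both with overlap. Each of these has a single tested probe set, and each had an adjusted p of 0.785.

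All 7 globin probe sets that passed the filter had lower means after pain, by 0.55 to 1.23 on the log2 scale, and none passed the test. Hbb, which encodes beta-globin, had log2 values of 10.78, 10.88, 10.21, 10.91 and 10.75 after pain, against 10.99, 12.05, 11.18, 12.00 and 12.16 after isoflurane. Isoflurane replicates 2, 4 and 5 lay more than a log2 unit above the pain arrays, and isoflurane replicates 1 and 3 lay just above them. The difference was -0.97 (SE 0.28) with an adjusted p of 0.785 in limma, and -0.84 without pain replicate 3. Hba-a3, an alpha-globin gene named after its values were seen, averaged 8.84 ± 0.76 after pain and 9.50 ± 0.33 after isoflurane (SD, n = 5 each). Its difference was -0.66, with overlap, and -0.33 without pain replicate 3. The other 5 globin probe sets carry several gene symbols and are not named as genes; their differences ran between -1.23 and -0.55, and 1 of them did not overlap between the groups. The same isoflurane arrays were the highest in each of these 5, as the plot of globin probe sets shows.

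**Figure D2:**
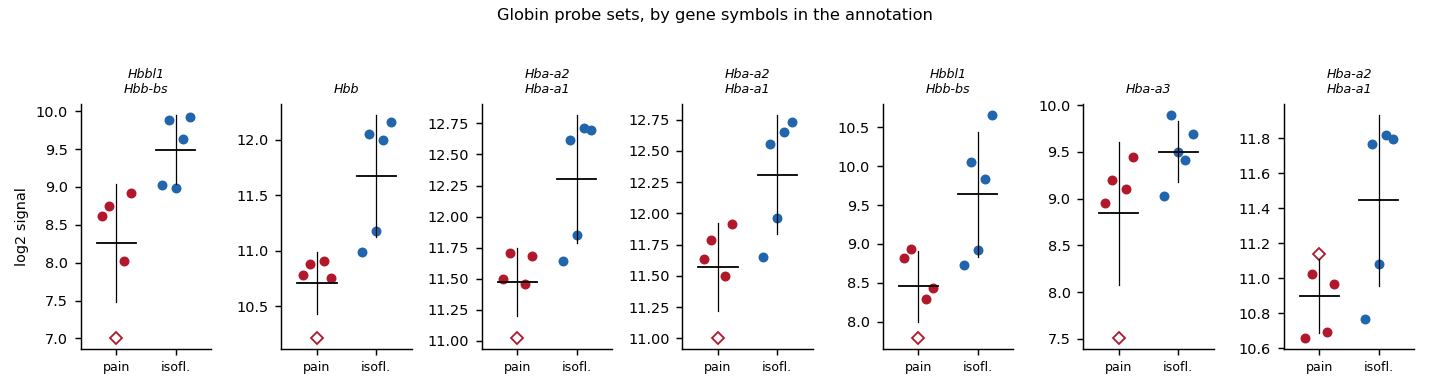
Log2 signals of the 7 globin probe sets that passed the filter, pain on the left and isoflurane on the right of each panel, with the gene symbols of the annotation above. Points are arrays, the open diamond is pain replicate 3, horizontal lines are means and vertical lines are ± 1 SD; all 7 means are lower after pain, by 0.55 to 1.23 log2 units.

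Epb41 encodes protein 4.1, which ties spectrin and actin to the membrane in red cells and also in neurons. It had log2 values of 7.10, 7.05, 6.69, 6.21 and 7.25 after pain, against 7.56, 7.76, 7.58, 7.55 and 7.42 after isoflurane. All pain values lay under all isoflurane values, and the pain arrays were the more spread, with an SD of 0.42 against 0.12. The difference was -0.72 (SE 0.16), or 0.609 of the isoflurane level, with an adjusted p of 0.574, and it was -0.67 without pain replicate 3. Of the other blood markers that passed the filter, the anion exchanger Slc4a1 differed by 0.21 and the red-cell enzyme Bpgm by 0.04, in the gene means, so that 2 of the 4 tested blood genes were higher and 2 lower. A mean score over the 4 tested blood genes lay between -0.49 and -0.04 on the pain arrays and between -0.09 and 0.19 on the isoflurane arrays, with overlap. In the other groups Hbb averaged 11.66 after conditioning, 11.52 after conditioning under isoflurane and 11.90 at baseline, so that the pain arrays, at 10.71, were the lowest group. For bulk tissue such as this, fewer cells of a type and less RNA per cell cannot be told apart. The 3′ to 5′ ratio for beta-actin also ran higher on some isoflurane arrays, at 1.23 to 2.21 against 1.23 to 1.48 on the pain arrays, and isoflurane replicates 2, 4 and 5, the high-globin arrays, had the values 2.21, 1.66 and 1.94. The ratio for Gapdh overlapped, at 1.11 to 1.19 on the isoflurane arrays and 1.02 to 1.23 on the pain arrays. The other groups held arrays of both kinds. Baseline replicate 9, with Hbb at 12.51, had a beta-actin ratio of 1.14, the lowest of all arrays. Conditioning replicate 5, with Hbb at 12.14, had a ratio of 1.85. Whether globin and this ratio went together over the arrays was not tested. The part of blood content or RNA length in the differences of other genes was not tested.

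The 12 leading genes on the higher side after pain were Efhd1, Ttll5, Ensa, Sf3b2, Fam171a1, Rhoa, Kcnab1, Aldh1a2, Fbxl20, Tnni1, Prkg2 and Gng5, with differences of 0.33 to 0.80 and an adjusted p of 0.785 for each. They too were picked by this comparison. The 12 differences lay between 0.27 and 0.84 without pain replicate 3. The groups did not overlap in 4 of them, Ttll5, Ensa, Kcnab1 and Aldh1a2, with the overall share of such probe sets at 0.294%.

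**Figure D3:**
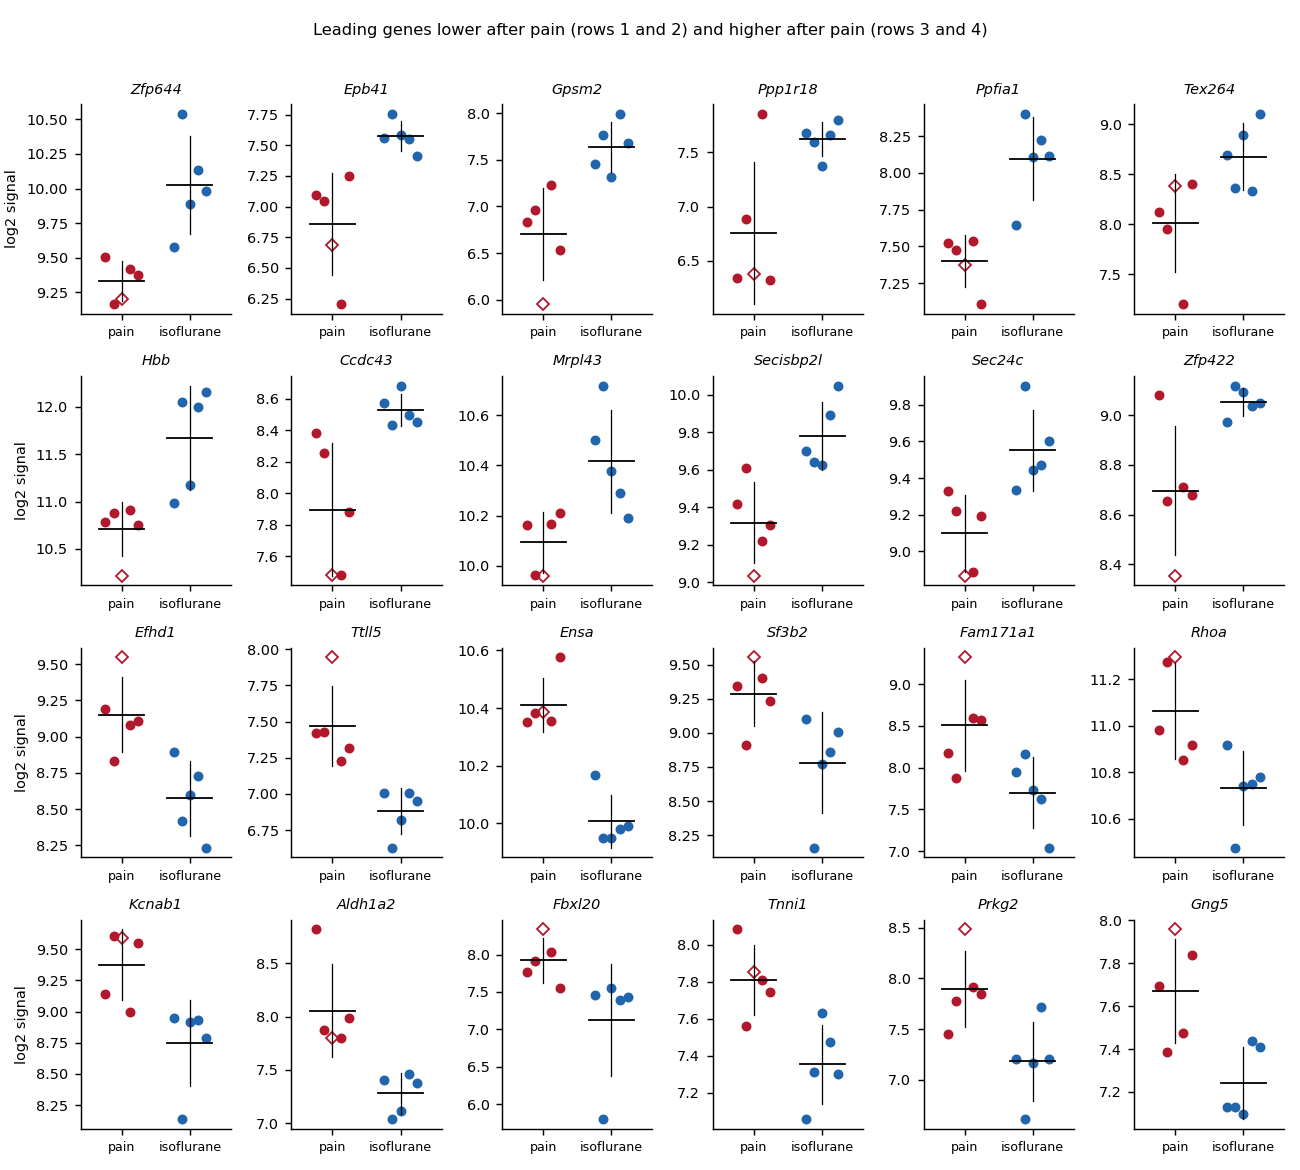
Log2 signals of the 12 genes with the lowest p on the lower side (upper panels) and on the higher side (lower panels) of pain minus isoflurane, pain on the left of each panel. Points are arrays, the open diamond is pain replicate 3, horizontal lines are means and vertical lines are ± 1 SD; 8 of the lower and 4 of the higher genes have groups that do not overlap, and none passed the adjusted threshold.

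Ensa encodes endosulfine, which inhibits protein phosphatase 2A when it is phosphorylated, and it had the tightest groups of the 4. Its log2 values were 10.35, 10.38, 10.39, 10.35 and 10.58 after pain, against 10.17, 9.95, 9.95, 9.98 and 9.99 after isoflurane. The groups were separate, with isoflurane replicate 1 the nearest to the pain arrays and pain replicate 5 the farthest from isoflurane. The difference was 0.40 (SE 0.11), and 0.41 without pain replicate 3. The other tested Ensa probe sets differed by 0.15 and -0.09, so that the gene's probe sets disagree.

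Kcnab1, the beta subunit that speeds inactivation of voltage-gated potassium channels, had 9.14, 9.61, 9.59, 9.00 and 9.55 after pain, against 8.95, 8.14, 8.91, 8.93 and 8.79 after isoflurane. The groups came close at pain replicate 4 and isoflurane replicate 1, and isoflurane replicate 2 was the lowest by a wide gap. The difference was 0.63 (SE 0.19), or 0.48 without isoflurane replicate 2 and 0.58 without pain replicate 3. Aldh1a2, which makes retinoic acid and is found mainly in the meninges of the adult brain, had 8.82, 7.87, 7.80, 7.80 and 7.98 after pain, against 7.41, 7.04, 7.11, 7.46 and 7.38 after isoflurane. Pain replicate 1 was far above the other pain arrays, and the same array was also the highest for the meningeal transcript Ptgds, at 13.57. The difference was 0.77 (SE 0.24), or 0.58 without pain replicate 1 and 0.84 without pain replicate 3. Ttll5, which adds glutamate chains to tubulin, averaged 7.47 ± 0.28 after pain and 6.88 ± 0.16 after isoflurane (SD, n = 5 each). Pain replicate 3 held its highest value, the difference was 0.59, or 0.47 without that array, and the other Ttll5 probe set differed by -0.08.

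For the remaining genes on this side the groups overlapped. Efhd1, a calcium-binding protein of mitochondria, differed by 0.58 (SE 0.15), or 0.48 without pain replicate 3. Prkg2, a protein kinase driven by cyclic GMP, differed by 0.71, and the slow-muscle troponin gene Tnni1 by 0.45. Several genes had a further probe set with a smaller difference. Sf3b2, a component of the spliceosome, differed by 0.51 in the leading probe set and 0.10 in the other. Rhoa, the small GTPase that controls actin, gave 0.33 and 0.23, and Gng5, a gamma subunit of G proteins, gave 0.43 and 0.16. Fam171a1, a membrane protein, gave 0.80 and 0.05, and the first of these was 0.60 without pain replicate 3, which held its highest value. Fbxl20, a ubiquitin ligase of presynaptic terminals, went both ways: 0.79 in the leading probe set, where isoflurane replicate 2 was far below the rest at 5.80, and -0.41 and -0.47 in the others.

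Conditioning without and with isoflurane gave a separate awake and anaesthetised pair that shares no array with pain and isoflurane. Both groups of this pair were conditioned and differed in anaesthesia, whereas pain and isoflurane differed in the painful stimulus as well. The comparisons are therefore unlike, and their differences need not agree. There too 0 of 9520 probe sets passed the adjusted threshold (0%), and 351 had an unadjusted p under 0.05 (3.69%). Of the 595 probe sets of the pain comparison, 318 (53.4%) had a difference of the same sign in the conditioning pair, against 52.5% of all probe sets tested. Both differences had an unadjusted p under 0.05 in 13 probe sets of the same sign and 10 of the opposite sign. Across the probe sets, which are not independent, the correlation of the 2 differences was 0.03. Of the 12 genes leading the higher side, 10 had a conditioning difference above 0 (48.2% of all probe sets), of 0.02 to 0.20, and Fbxl20 and Prkg2 had -0.20 and -0.15. Of the 12 leading the lower side, 6 had one below 0, and Zfp644, Epb41, Ppp1r18, Tex264, Hbb and Zfp422 had one above 0.

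The difference between the pairs themselves, tested as an interaction, also had 0 probe sets past the adjusted threshold (0%) and 404 at an unadjusted p under 0.05 (4.24%). Its leading genes were Zfp644, Ppp1r18 and Tex264, in which the pairs ran in opposite directions. They were picked by this test, which favours genes with opposite directions in the pairs, so their values are a description. Zfp644 averaged 9.81 ± 0.17 after conditioning and 9.40 ± 0.10 after conditioning under isoflurane (SD, n = 5 each), a difference of 0.41 without overlap, as in 0.315% of all probe sets on that side, and 9.53 ± 0.28 at baseline. Its interaction was -1.10 (SE 0.21) with an adjusted p of 0.083 in limma. It passed at 0.0112 without isoflurane replicate 1 and at 0.0392 when fewer, more strongly expressed probe sets were tested. Other alternatives went the other way. The lowest interaction adjusted p of any probe set in limma was 0.272 without pain replicate 2 and 0.242 with no filter. It was 0.166 without isoflurane replicate 2 and 0.151 with replicate numbers as a block. Ppp1r18 averaged 7.74 ± 0.13 after conditioning and 7.17 ± 0.23 after conditioning under isoflurane, again without overlap. Its interaction of -1.43 (SE 0.30) had an adjusted p of 0.177, which became 0.00067 without pain replicate 4. Tex264 averaged 8.65 ± 0.18 after conditioning and 8.11 ± 0.21 after conditioning under isoflurane, also without overlap, with an interaction of -1.20 (SE 0.26) and an adjusted p of 0.177. Epb41 differed by 0.02 in the conditioning pair, and its 4 groups other than pain averaged between 7.47 and 7.57, as the plot over all groups shows.

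**Figure D4:**
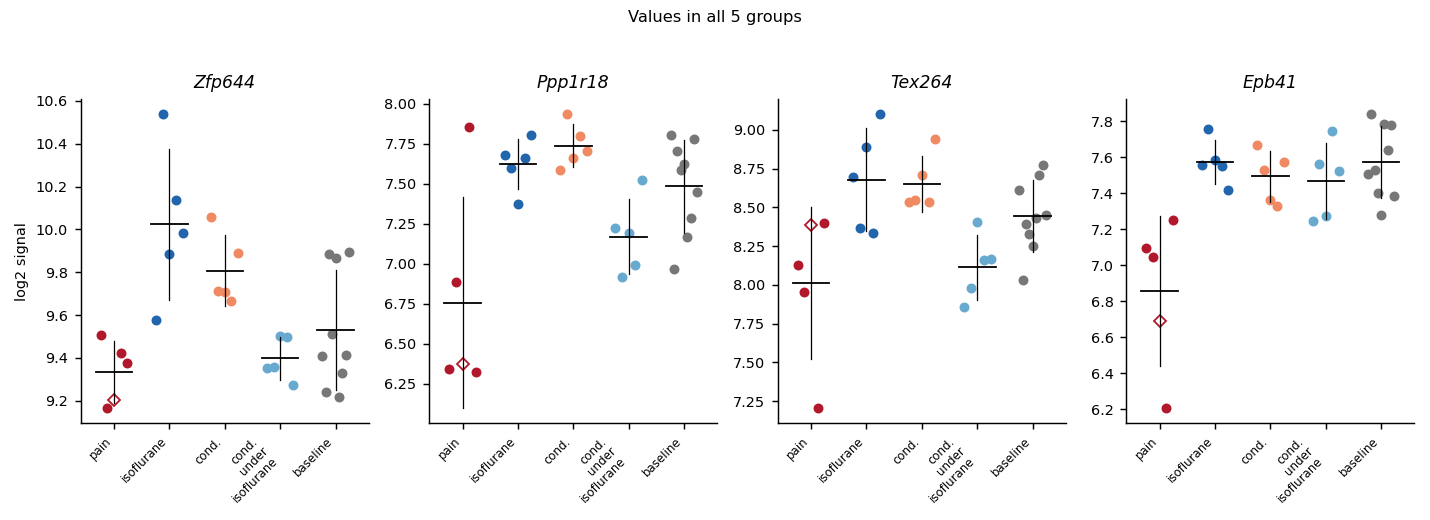
Log2 signals of Zfp644, Ppp1r18, Tex264 and Epb41 on all 29 arrays, in the order pain, isoflurane, conditioning, conditioning under isoflurane (cond. stands for conditioning) and baseline. Points are arrays, the open diamond is pain replicate 3, horizontal lines are means and vertical lines are ± 1 SD. In Zfp644, Ppp1r18 and Tex264 pain lies under isoflurane while conditioning lies above conditioning under isoflurane. These genes were picked by the interaction test, which favours such opposite directions.

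Immediate early genes, the usual marks of recently active neurons, did not separate pain from isoflurane at 6 h. Fos had log2 values of 6.71, 7.89, 8.40, 7.36 and 8.70 after pain, against 8.25, 8.41, 8.00, 8.50 and 8.13 after isoflurane. The pain arrays were spread widely, on both sides of all isoflurane arrays. The difference was -0.45 (SE 0.41) with an adjusted p of 0.886. Egr1 averaged 10.57 ± 0.20 after pain and 10.58 ± 0.27 after isoflurane (SD, n = 5 each), and its difference of -0.01 changed sign when single arrays were left out. Arc, whose protein moves to active synapses, differed by -0.13 (SE 0.19). Of the 11 immediate early transcription factors tested, 4 were higher and 7 lower, with a median of -0.01, and 0 had an unadjusted p under 0.05. Without pain replicate 3 the median was -0.11, with 3 of 11 higher. Over all arrays, Ier5 at 0.36 and Egr4 at -0.37 came nearest to an unadjusted p of 0.05. Of the 15 activity-regulated effectors, 7 were higher and 8 lower, with a median of -0.02. Among them Bdnf, the neurotrophin linked to memory storage, had 7.23, 6.98, 6.84, 8.12 and 8.35 after pain, against 7.74, 7.85, 8.18, 7.84 and 7.67 after isoflurane. Pain replicates 1, 2 and 3 lay below all isoflurane arrays and pain replicate 5 above them, and the difference was -0.35 (SE 0.26), or -0.18 without pain replicate 3. Npas4 has no probe set with a single symbol here.

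Of 19 genes that respond to glucocorticoids, which are released in stress, 13 were lower after pain than after isoflurane and 6 higher. Their median was -0.08 beside -0.01 for all 7049 genes. None passed the test, and 1 had an unadjusted p under 0.05, where 2.68% of all genes were at that level on the higher side and 3.39% on the lower. That gene was Mt2A, a metallothionein that binds zinc and copper, with 10.86, 10.28, 10.40, 10.08 and 10.22 after pain, against 10.56, 10.93, 10.80, 11.23 and 10.55 after isoflurane. Pain replicate 1 reached into the isoflurane range, and the other pain arrays lay below it. The difference was -0.45 (SE 0.17). Sgk1, a kinase induced by corticosteroids, differed by -0.24 (SE 0.21), Klf9 by -0.08 and Tsc22d3, or GILZ, by -0.19. Fkbp5, the co-chaperone that restrains the glucocorticoid receptor, differed by 0.07 with pain replicate 3 and by -0.06 without it. Without that array the median of the list was -0.04. In the conditioning pair 14 of the 19 were above 0 with a median of 0.11, where 47.4% of all genes were above 0. A mean score over the list averaged -0.11 at baseline, 0.01 after pain and 0.12 after isoflurane. The pain arrays overlapped with both other groups, and differences from baseline were not tested.

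Cholesterol and SREBP genes, which sense sterols in the endoplasmic reticulum, gave 8 higher and 11 lower of 19, with a median of -0.03. Insig1, which holds SREBP back when sterols are plentiful, had 9.73, 9.54, 9.51, 9.88 and 9.67 after pain, against 9.31, 9.50, 9.48, 9.45 and 9.39 after isoflurane. The groups did not overlap, but pain replicate 3 and isoflurane replicate 2 lay close together. The difference was 0.24 (SE 0.09) with an unadjusted p of 0.00787 and an adjusted p of 0.785, and it was 0.28 without pain replicate 3. Scap, the escort of SREBP, differed the other way by -0.30. Conditioning minus conditioning under isoflurane gave 0.17 for Insig1 and -0.17 for Scap, of the same signs, with overlap in both. In the other groups Insig1 averaged 9.84 after conditioning, 9.67 after conditioning under isoflurane and 9.87 at baseline, so that the isoflurane arrays, at 9.42, were the lowest group.

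The receptors and channels on which isoflurane acts showed no common direction. Of the 8 GABA-A receptor subunits tested, 4 were higher and 4 lower after pain, with a median of 0.04. Gabra4, a subunit of extrasynaptic receptors, had 8.16, 8.16, 7.74, 8.08 and 8.00 after pain, against 8.10, 6.91, 7.96, 7.54 and 8.08 after isoflurane. Isoflurane replicates 2 and 4 lay below all pain arrays and the others lay within the pain range, and the difference was 0.31 (SE 0.21). Gabrg1 differed by 0.32 and Gabrb2 by -0.08. Of 9 genes of glycine receptors, GABA-B receptors and leak potassium channels, 5 were higher and 4 lower. Among 21 voltage-gated channels 9 were higher and 12 lower, with a median of -0.05, and 2 had an unadjusted p under 0.05 on the lower side, where 3.39% of all genes did. The count was 0 without pain replicate 3. The 2 were the sodium channel Scn3a at -0.56 and the potassium channel Kcnd3 at -0.66, which became -0.40 and -0.50 without pain replicate 3. Kcnd2, a near relative of Kcnd3, differed by 0.35, or 0.23 without that array.

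Genes of synapses likewise spread around 0. Among 15 glutamate receptors 9 were higher and 6 lower, with a median of 0.03, and the metabotropic receptor Grm3 differed by 0.34 and the NMDA receptor subunit Grin2a by 0.54. Among 15 postsynaptic scaffolds 10 were higher and 5 lower. Among 19 presynaptic genes 11 were higher and 8 lower, with a median of 0.01. Cplx2, or complexin 2, which clamps vesicles before release, showed the widest difference of any gene in the lists but 1. It had 8.85, 8.50, 9.37, 9.00 and 8.89 after pain, against 8.22, 8.35, 5.11, 8.76 and 9.01 after isoflurane. Isoflurane replicate 3 was far below every other array, and the remaining isoflurane values overlapped with pain, so that the difference of 1.03 rested largely on that array. Vamp2, the vesicle protein of the fusion machinery, differed by -0.31. Of 25 memory-linked kinases, phosphatases and CREB genes, 13 were higher and 12 lower.

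Peptide and amine signalling, through which pain and arousal reach the amygdala, gave no call. Of 22 opioid and nociception-linked genes 10 were higher and 12 lower, with a median of -0.01. Penk, the enkephalin precursor, averaged 12.15 ± 0.57 after pain and 12.21 ± 0.55 after isoflurane (SD, n = 5 each). Its difference of -0.06 changed sign when single arrays were left out. Grp, the gastrin-releasing peptide of amygdala neurons, differed by -0.52, and Adcyap1, the precursor of PACAP, by -0.39, each within its spread, and the Grp value was 0.05 when only more strongly expressed probe sets were tested. The stress peptide gene Crh fell below the filter. Of 13 monoamine and acetylcholine receptors 10 were higher and 3 lower, with a median of 0.06, among them the muscarinic receptor Chrm3 at 0.29.

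Growth factors and their receptors were the list with the most one-sided count among the signalling genes. Of 20 tested, 17 were higher and 3 lower after pain, with a median of 0.10, or 0.12 without pain replicate 3, where 48.2% of all genes were higher. Of these, 2 had an unadjusted p under 0.05, both on the higher side, where 2.68% of all genes did, and 0 passed the test. The count was 1 when pain replicate 3 was left out. Pdgfa, a growth factor for oligodendrocyte precursors, had 8.70, 9.32, 9.46, 9.16 and 9.28 after pain, against 8.75, 8.90, 8.76, 8.66 and 8.84 after isoflurane. Pain replicate 1 lay among the isoflurane arrays and the others lay above them, with a difference of 0.40. Fgfr3, a receptor for fibroblast growth factors that astrocytes carry, had 8.44, 8.02, 8.93, 8.32 and 8.11 after pain, against 8.13, 7.73, 8.09, 8.15 and 7.70 after isoflurane. Its difference of 0.41 became 0.26 without pain replicate 3, which held the highest value. In the conditioning pair 11 of the 20 genes were above 0, with a median of 0.03. A mean score over the list lay between -0.09 and 0.21 on the pain arrays and between -0.12 and 0.00 on the isoflurane arrays, so that the groups overlapped.

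Stress-protein and metabolic genes differed little. Of 16 cytosolic heat shock genes 11 were higher and 5 lower, with a median of 0.06, and of 18 chaperone and stress genes of the endoplasmic reticulum 12 were higher and 6 lower. Hsp90b1, the endoplasmic reticulum form of Hsp90, differed by 0.19, Creld2 by -0.33 and Herpud1 by -0.40. Cryab, a small heat shock protein, differed by 0.15 (SE 0.16), or 0.07 without pain replicate 3, and by 0.52 in the conditioning pair. Of 39 cytosolic ribosomal proteins 29 were higher (48.2% of all genes) and 10 lower, with a median of 0.04, and Rpsa differed by 0.22. Of 49 oxidative phosphorylation genes 22 were higher and 27 lower. Of 18 glycolysis genes 8 were higher and 10 lower, and the enzymes that make the activator of phosphofructokinase were the 2 at an unadjusted p under 0.05, Pfkfb2 at 0.51 and Pfkfb3 at 0.34. Both were smaller without pain replicate 3, at 0.34 and 0.21, and neither was then at that level, where 1.77% of all genes were higher and 1.76% lower at it. With no filter on low values, which brings in its dimmer probe sets, the Pfkfb2 mean was -0.22. Of 30 genes of oxidative stress and xenobiotic metabolism 19 were higher and 11 lower, with Gstt3 at 0.31, the extracellular superoxide dismutase Sod3 at 0.35 and heme oxygenase Hmox1 at 0.30 under an unadjusted p of 0.05, where 2.68% of all genes were on the higher side. Without pain replicate 3 only Gstt3 was at that level, and Sod3 differed by 0.18. Gstt3 and Sod3 also differed by 0.34 and 0.32 in the conditioning pair. Of the 30 genes of the list, 15 were above 0 in that pair, where 47.4% of all genes were, with a median of 0.005.

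Immune, clock and matrix genes completed the pathways. Of 11 antigen presentation and interferon genes 7 were higher and 4 lower, with a median of 0.18 that became 0.09 without pain replicate 3. Bst2, an interferon-induced membrane protein, differed by 0.25, and Cd74, the invariant chain of class II molecules, by 0.55 with a pain SD of 1.20. Of 7 cytokine and inflammation genes that passed the filter, out of 29 on the array, 4 were higher and 3 lower. Nfkbia, the inhibitor of NF-kappa-B, differed by -0.47 over all arrays and by 0.002 without pain replicate 3, where its value was 5.26. Of 12 clock genes 4 were higher and 8 lower, with Per2 at -0.46, or -0.07 without pain replicate 3, and Csnk1d at 0.23. Of 23 matrix and adhesion genes 15 were higher and 8 lower, with the adhesion protein Lsamp at 0.31 and the membrane protease Mmp14 at 0.42.

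Cell type markers were read as a check on the makeup of the dissected tissue. Astrocyte markers were higher after pain in 20 of 24 (48.2% of all genes), with a median of 0.12, or 0.11 without pain replicate 3. Of these, 2 had an unadjusted p under 0.05, Fgfr3 and the glutamate transporter Slc1a3 at 0.25, against 2.68% of all genes on that side, and 0 passed the test. Leaving out pain replicate 3 made the count 0. The 3 tested Slc1a3 probe sets differed by 0.50, 0.21 and 0.05. The mean score over the list lay between -0.08 and 0.21 on the pain arrays and between -0.35 and 0.18 on the isoflurane arrays, with overlap. The conditioning pair gave 19 of 24 above 0, where 47.4% of all genes were, with a median of 0.08. Growth factor and astrocyte lists share Fgfr3. Microglial markers were higher in 11 of 16, with a median of 0.09 and the fractalkine receptor Cx3cr1 at 0.30. Vascular and meningeal markers were higher in 8 of 11, with a median of 0.14. Ptgds, a meningeal prostaglandin synthase, led them at 1.08, with 13.57 on pain replicate 1 against 10.47 to 12.07 on the other pain arrays and 9.82 to 11.31 on the isoflurane arrays.

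Neuronal markers did not move one way. Excitatory projection neuron genes were higher in 5 and lower in 7 of 12, with a median of -0.07 that became 0.05 without pain replicate 3. Interneuron genes were higher in 10 and lower in 5 of 15, with Pvalb at -0.32. Striatal genes were higher in 7 and lower in 7 of 14, and hypothalamic and thalamic genes were higher in 2 and lower in 5 of 7. Oligodendrocyte and myelin genes were higher in 10 and lower in 8 of 18, with a median of 0.02. In the conditioning pair all 18 were above 0, where 47.4% of all genes were, with a median of 0.27. Choroid plexus genes were tested in 4 cases, and Ttr, the choroid plexus transthyretin, averaged 8.00 ± 0.38 after pain and 7.75 ± 0.36 after isoflurane (SD, n = 5 each). The part of cell makeup in the differences of single genes was not tested. The plot of list members gives all lists side by side.

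**Figure D5:**
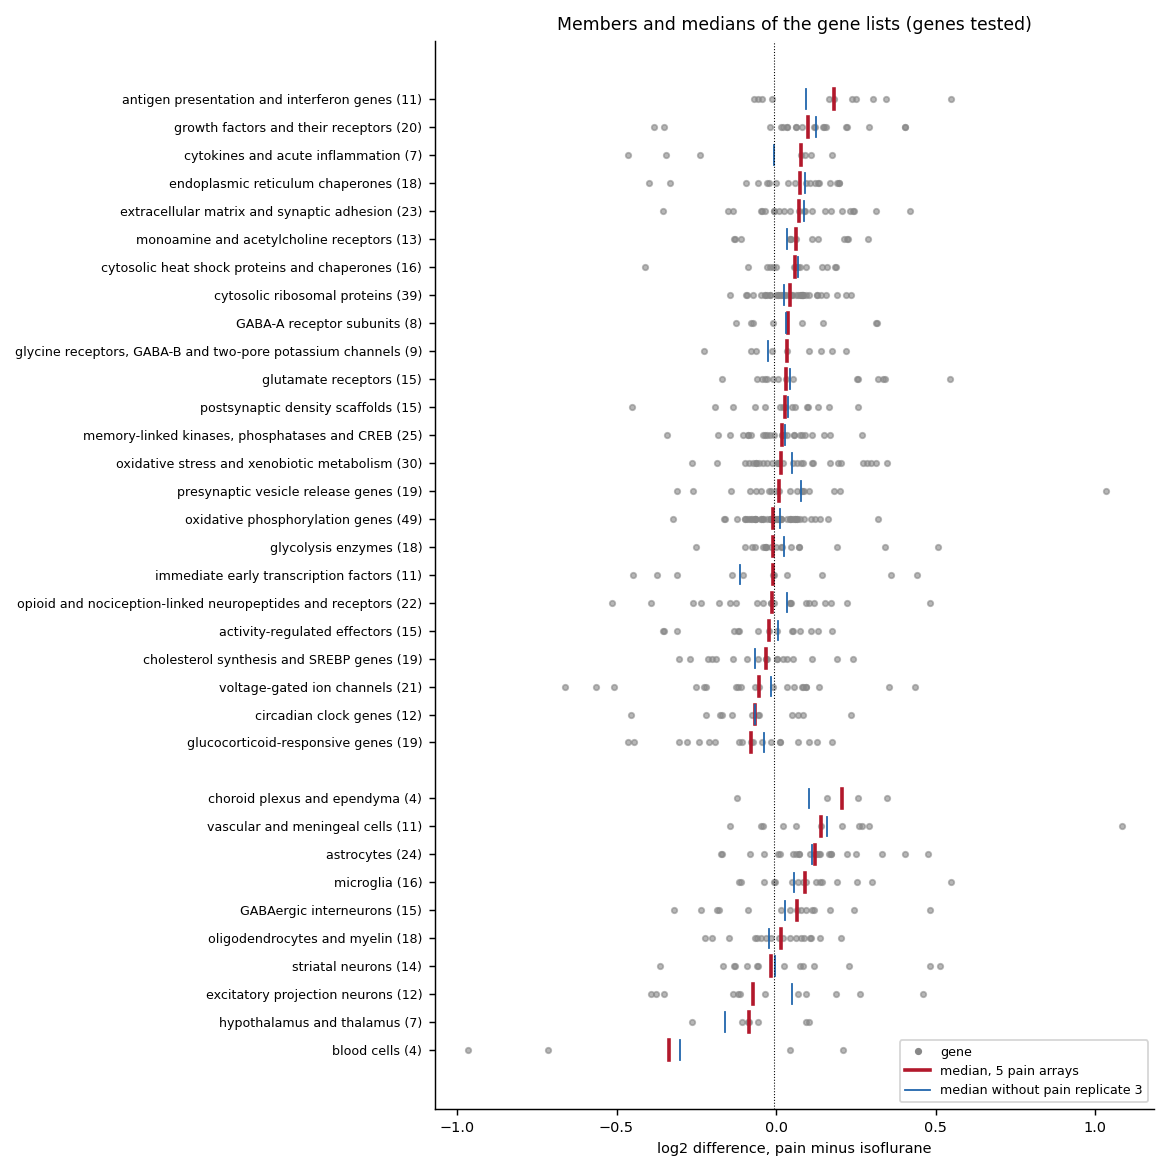
Log2 difference, pain minus isoflurane, of each tested gene in 24 pathway lists (upper block) and 10 cell type lists (lower block), with the number of tested genes in brackets. Grey points are genes, red bars are list medians over all arrays, blue bars are medians without pain replicate 3 and the dotted line is the median of all 7049 genes, -0.01; list medians lie between -0.34 for blood cells and 0.21 for choroid plexus and ependyma.

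Some other values also moved when pain replicate 3 was left out. Without it, Grin2a differed by 0.33, Cd74 by 0.28, Adcyap1 and Herpud1 each by -0.19 and Pvalb by -0.13. The median was then 0.08 for presynaptic genes, 0.04 for opioid and nociception-linked genes, 0.03 for monoamine and acetylcholine receptors, -0.02 for voltage-gated channels, 0.06 for microglia and -0.02 for oligodendrocytes and myelin. Centring each array on its median lowered the median of all probe sets to -0.08, so that no sign is read from list medians near 0. Over the 22 settings tried, the medians of growth factors, astrocytes, microglia and vascular and meningeal cells stayed above 0, and those of glucocorticoid-responsive and cholesterol genes stayed below 0. For growth factors the lowest value was 0.03, for astrocytes 0.02, for microglia 0.01 and for vascular and meningeal cells 0.04. The highest value was -0.04 for glucocorticoid-responsive genes and -0.001 for cholesterol genes. The settings reuse the same arrays, so they are not separate evidence of a direction.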

How the data were processed

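The authors deposited 1 linear signal intensity per probe set and array, scaled to a common mean, which is 500.08 to 500.12 over all arrays once the lowest and highest 2% of values are dropped. The software and the genome build of that step are not given in the sources used here. The 57 control probe sets were left out. Signals were quantile normalized over 29 arrays, because array medians ran from 210.7 to 292.2, with values under 16 set to 16, and log2 was taken. The test covered the 9520 of 15866 probe sets whose mean log2 value reached the 40th percentile (7.26). No detection calls were used, and the number of arrays limits the precision. Symbols came from the platform annotation in the files used here: 12783 probe sets had 1 symbol, 312 several and 2771 none. Of these, 12748 matched a current rat gene table by gene identifier, and 0 symbols changed.

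Fits used limma 3.58.1 in R 4.3.3 (lmFit, then eBayes with a trend) with 1 mean per group over all 29 arrays and Benjamini-Hochberg adjustment over 9520 probe sets, two-sided, with a threshold of 0.05. Differences are pain minus isoflurane. For lists, probe sets of 1 gene were averaged on the log2 scale (7049 genes), so that list values can differ slightly in their errors from probe set values. A list score is the mean over members of the value minus that gene's mean over all arrays. The fit was tested on simulated data. The members and lists were chosen with earlier results of these data known. Named were the 12 genes with the lowest p in each direction, up to 4 genes per list, and 17 fixed genes, of which 13 were tested. Hba-a3 and the genes under other observations were chosen after their values were seen. Replicate numbers did not pair the arrays: the correlation of same-numbered deviations lay between -0.12 and 0.07, over 0.1 in 0 of 5 pairs. Alternatives were the scaling, floor, filter, variance trend, array weights, the arrays fitted, a replicate block and leaving out each array.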

Additional observations from a re-analysis of the deposited data

Results flagged for a closer look

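Of 84 sets of 5 values examined for a single value far from the other 4, 11 had a gap above the 95% limit for 5 samples, 8 among pain arrays and 3 among isoflurane arrays. Chance alone gives such a gap in about 1 in 20 sets. Pain replicate 3 held 6 of them: its median signal of 292.2 (nearest other pain array 244.1), its median correlation of 0.907 with other arrays (nearest 0.963), its 135 probe sets at the floor (nearest 1066), and its log2 values of 7.94 for Ttll5 (nearest 7.43), 10.21 for Hbb (nearest 10.75) and 9.47 for Fkbp5 (nearest 8.90). Among the other pain arrays, replicate 5 had 10.58 for Ensa (nearest 10.39) and replicate 1 had 8.82 for Aldh1a2 (nearest 7.98). Among the isoflurane arrays, replicate 1 had 10.17 for Ensa (nearest 9.99), and replicate 2 had 8.14 for Kcnab1 (nearest 8.79) and 5.80 for Fbxl20 (nearest 7.39).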

How the results depend on the processing

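The adjusted threshold gave 0 calls for pain minus isoflurane under each of the 22 alternatives except without pain replicate 4, where 1 probe set passed (Ppp1r18), so that leaving out 1 array gave 0 to 1. For the interaction, leaving out 1 array gave 0 to 1 and the filter at the 70th percentile gave 1 (Zfp644); for the conditioning pair leaving out 1 array gave 0 to 0. At an unadjusted p under 0.05 the 595 became 1054 with no filter and 213 at the 70th percentile, where more or fewer probe sets were tested. It became 394 with the 10 arrays alone, 389 with these normalized among themselves and 343 with pain replicate 3 left out before normalization, an alternative chosen after seeing the data; leaving out 1 array gave 343 (pain replicate 3) to 819 (pain replicate 4). Replicate numbers as a block gave 603, with 0 calls. The adjusted p of Zfp644 ran from 0.0509 (without isoflurane replicate 1) to 0.999.

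The 24 leading genes and Insig1 kept their direction in every alternative in which they were tested. The 24 were picked for a low p on these arrays, which the alternatives reuse, so their direction could hardly change. Other differences changed sign under some alternatives. Fkbp5 had -0.00601 with arrays centred on their medians, -0.032 with array weights, -0.062 with pain replicate 3 left out before normalization, and -0.062 (without pain replicate 3) to 0.14 when single arrays were left out. Penk had 0.021 with array weights and -0.30 to 0.071 when single arrays were left out, and Egr1 had -0.085 to 0.090. Among gene means, no filter gave -0.37 for Aqp1, -0.015 for Reln, -0.22 for Pfkfb2 and 0.30 for Crebbp. The 70th percentile gave -0.18 for Slc4a1, 0.010 for Il6st and 0.051 for Grp, and median centring gave -0.081 for Hspd1 and -0.023 for Camk2g. Crebbp had 0.014 with pain replicate 3 left out before normalization and -0.57 to 0.014 (without pain replicate 3) when single arrays were left out, and Chrna7 -0.080 (without isoflurane replicate 5) to 0.33. The cause was not tested. Over all alternatives 2011 differences of list genes kept their direction and 12 did not. These were only the list genes with the lowest p on these arrays, so their direction could seldom change. Of the list medians, 731 moved by less than the spread between arrays and 16 by more. Some list medians changed sign, such as that of immediate early transcription factors, which ran from -0.13 to 0.07.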

Other observations

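The widest difference of any tested probe set, -2.07, or -2.31 without pain replicate 3, was in a probe set without a gene symbol. Among probe sets with 1 symbol, Dmap1, Emp3 and Nfix had wide differences that rested on few arrays; they were picked after the values were seen, and none passed the test. Dmap1, a protein that binds a DNA methyltransferase, differed by -1.26, with pain replicate 3 at the floor of 4.00, the other pain arrays at 7.15 to 7.68 and the isoflurane arrays at 7.56 to 8.27. Without that array its difference was -0.60. Emp3, a membrane protein of the PMP22 family, differed by 1.16, with 7.51 to 8.16 after pain and 5.09, 6.28, 7.95, 7.01 and 7.47 after isoflurane. Nfix, a transcription factor of glial and neuronal maturation, differed by 0.93, with 8.39 to 9.22 after pain and isoflurane replicate 3 at 5.74 against 8.22 to 8.59 on the other isoflurane arrays; the same array held the low value of Cplx2. Nfix also differed by 0.85 in the conditioning pair.

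Myh1, a myosin heavy chain of skeletal muscle, had 5 tested probe sets, all lower after pain, by 0.10 to 1.05. In the probe set with a difference of -1.05 the values were 10.44, 8.48, 8.31, 9.72 and 8.09 after pain, against 8.81, 11.56, 12.02, 7.88 and 9.99 after isoflurane. Isoflurane replicates 2 and 3 were the highest, the groups overlapped, and the adjusted p was 0.836. Tnni1, another muscle gene, differed in the other direction by 0.45.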
